A study of Homo sapiens with 7 samples.

Results

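Of the genes of the circadian clock and its output, 10 were examined. They were the period genes PER1, PER2 and PER3, the cryptochrome genes CRY1 and CRY2, the activator genes CLOCK and NPAS2, and the output genes DBP, TEF and HLF. BMAL1, the partner of CLOCK and NPAS2, was not among them but in a second list of 20 further genes. The 10 genes are among 19974 protein-coding genes in the gene table used. A peak was assigned to a gene when its summit lay in the gene's span or within 50 kb of it. The members were selected on called peak positions in these 6 libraries, already known when they were chosen, so every count below is a description and carries no test. The window takes in neighbouring genes as well. At its edge, the region farthest inside was 49.0 kb from DBP, and the nearest outside were 52 kb from PER2 and 52.1 kb from CLOCK.

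In the clock, CLOCK or NPAS2 pairs with BMAL1 on DNA elements called E-boxes and switches on the PER and CRY genes, whose proteins return to the nucleus and repress that activity. DBP, TEF and HLF are leucine zipper factors that bind D-boxes and carry the rhythm to output genes, among them genes of drug and lipid metabolism in mouse liver. PPARα, a nuclear receptor for fatty acids and the target of fibrate drugs, is itself rhythmic in mouse liver, and mouse PER2 protein is known to bind it. As a dimer with RXR it recognises direct repeats of the half-site AGGTCA.

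Chromatin bound by PPARα was precipitated from HepG2, a human hepatocellular carcinoma cell line, and sequenced. In the PPARα+ERα group, cells carried expression vectors for PPARα and for estrogen receptor alpha and were exposed for 45 min to PPT, an ERα agonist, at 10 nM. In the PPARα+ERβ group they carried vectors for PPARα and for estrogen receptor beta and were exposed for 45 min to DPN, an ERβ agonist, at 10 nM. The PPARα group carried the PPARα vector alone and had no estrogen receptor agonist. All 3 groups were then treated for 2 h with 10 µM WY14643, an agonist of PPARα, and agonists were given 48 h after transfection. PPARα was thus supplied from a plasmid in every group, and no group lacked it. An added receptor and its agonist always came together and cannot be told apart. The labels do not say whether the 2 libraries of a group came from separate cultures, so differences between them may be technical. A no-antibody sample was not analysed here, and peak lists hold no expression values with which to check liver markers.

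The PPARα+ERα lists held 24505 and 27544 peaks, the PPARα+ERβ lists 17457 and 23302, and the PPARα lists 23805 and 36302, on chromosomes 1 to 22 and X. Each peak carries a fold, its enrichment over the local background, with 1 added to fragments and background alike. It is the authors' own value and ranks peaks only within one list. The percentile given below is a peak's place in its own list by the authors' −log10 q. The number of fragments stacked at each summit and the local background were recovered from the fold and its p-value. Stacks were much lower with PPARα+ERα, with medians of 9 and 10 fragments, against 27 and 29 with PPARα+ERβ and 35 and 50 with PPARα. The median local background, as a multiple of the lowest in the same list, was 1.64 and 1.57 in the PPARα+ERα lists, 9.34 and 8.52 in the PPARα+ERβ lists, and 13.5 and 15.7 in the PPARα lists. The groups therefore differ in where along the range of background their peaks were called, and the part of this in the results below was not tested.

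Promoter sequence is shown for PER1 and PER2, where a PPARα+ERβ region lay within 3 kb of an end of the gene, and for DBP, the output gene without a summit in its span. The windows run from 250 bases before to 50 after the RefSeq start site in GRCh38.p14, all on the minus strand, at chr17:8152355-8152654 for PER1, chr2:238288561-238288860 for PER2 and chr19:48637330-48637629 for DBP. Capitals mark an E-box (CACGTG), an E-box variant (CACGTT), the half-site (AGGTCA, or TGACCT read from the other strand) or a D-box (TTATGTAA or TTATGCAA).
PER1 promoter: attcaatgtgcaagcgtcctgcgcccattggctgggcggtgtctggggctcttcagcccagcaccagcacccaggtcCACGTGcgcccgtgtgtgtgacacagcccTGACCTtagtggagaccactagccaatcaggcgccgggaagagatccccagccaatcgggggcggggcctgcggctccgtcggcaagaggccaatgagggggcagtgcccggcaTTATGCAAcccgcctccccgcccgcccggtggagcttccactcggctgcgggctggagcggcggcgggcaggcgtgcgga
PER2 promoter: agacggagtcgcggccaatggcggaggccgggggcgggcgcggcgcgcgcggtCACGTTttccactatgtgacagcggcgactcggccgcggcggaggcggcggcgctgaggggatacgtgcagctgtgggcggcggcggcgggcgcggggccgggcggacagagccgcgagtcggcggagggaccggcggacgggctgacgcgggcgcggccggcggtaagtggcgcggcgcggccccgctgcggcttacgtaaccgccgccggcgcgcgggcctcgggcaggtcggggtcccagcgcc
DBP promoter: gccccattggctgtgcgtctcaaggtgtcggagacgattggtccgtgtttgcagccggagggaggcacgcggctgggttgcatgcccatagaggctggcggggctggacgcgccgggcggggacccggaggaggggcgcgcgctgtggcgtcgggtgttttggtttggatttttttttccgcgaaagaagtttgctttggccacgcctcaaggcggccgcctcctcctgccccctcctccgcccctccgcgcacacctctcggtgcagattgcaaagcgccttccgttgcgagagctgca

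The PER1 window held an E-box 173 bases, a half-site 144 bases and a D-box 30 bases upstream of the start site. Of the motifs as spelled above, the PER2 window held only the variant, 197 bases upstream, and the DBP window held none. This says only that these letters are absent from those 300 bases. Other spellings were not searched, among them ttacgtaa, which stands in the PER2 window and is close to the D-box. The variant was added to the search after the sequences had been seen. Both strands were searched, and no match overlapped another.

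Of the other clock genes, PER3, CRY1, CRY2, CLOCK and TEF carried motifs of the same kinds, and NPAS2 and HLF carried none. They are shown for PER3 and TEF with 10 bases on either side. PER3 held a D-box 177 bases upstream of its start site at chr1:7784104-7784131, and the TEF windows each held an E-box, 195 bases upstream at chr22:41367250-41367275 and 193 bases upstream at chr22:41381739-41381764, all on the plus strand.
PER3 D-box: agcccgcgcgTTATGTAAcgcgccccgg
TEF E-box, upstream start site: gcgacagctcCACGTGctgcagctgg
TEF E-box, downstream start site: cctggccccgCACGTGtctatcttat
Over the 15 promoter windows of the 10 genes, the E-box was in 3 and in 7.27% of all 34961 windows. The D-box, only as spelled above, was in 2 and in 1.72% of all. The half-site was in 3 of the 15 windows and in 13.8% of all, and the variant in 4 and in 5.36%. No clock window held 2 copies of AGGTCA in direct repeat with 1 base between them, present in 0.0229% of all windows, or GGTCA and TGACC with 3 bases between them, the palindromic estrogen response element, present in 0.0572%. No peak of any library overlapped any of the 15 windows, and 1.45% of all windows had a peak over them. At so low a share over all windows, the absence of peaks in 15 does not set the clock genes apart. It holds only for the start sites used here. The PER2 window lay inside the span, away from its 5′ end.

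Each of the 10 genes had at least 1 peak in its window in some library, as did 95.2% of all protein-coding genes. The PPARα+ERα libraries had 18 and 17 summits in the windows, the PPARα+ERβ libraries 12 and 17, and the PPARα libraries 19 and 37. The mean was 17.5 ± 0.707 with PPARα+ERα, 14.5 ± 3.54 with PPARα+ERβ and 28.0 ± 12.7 with PPARα (SD, n = 2 each). The 2 PPARα libraries lay farthest apart. Per Mb of window this was 10.8 and 10.2 with PPARα+ERα, where all protein-coding windows had 9.44 and 10.6. It was 7.21 and 10.2 with PPARα+ERβ, against 6.93 and 9.43 over all windows, and 11.4 and 22.2 with PPARα, against 8.96 and 14.4. Clock genes thus had about as many peaks per length as other genes with either estrogen receptor, and 1.28 and 1.55 times as many in the PPARα libraries. Of the 37 summits of the second PPARα library, 10 were at TEF alone, where 7 regions were called in that library only. Clock genes are also long, with a median span of 58.1 kb against 24.2 kb over all protein-coding genes, so their windows hold more sequence.

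**Figure D1:**
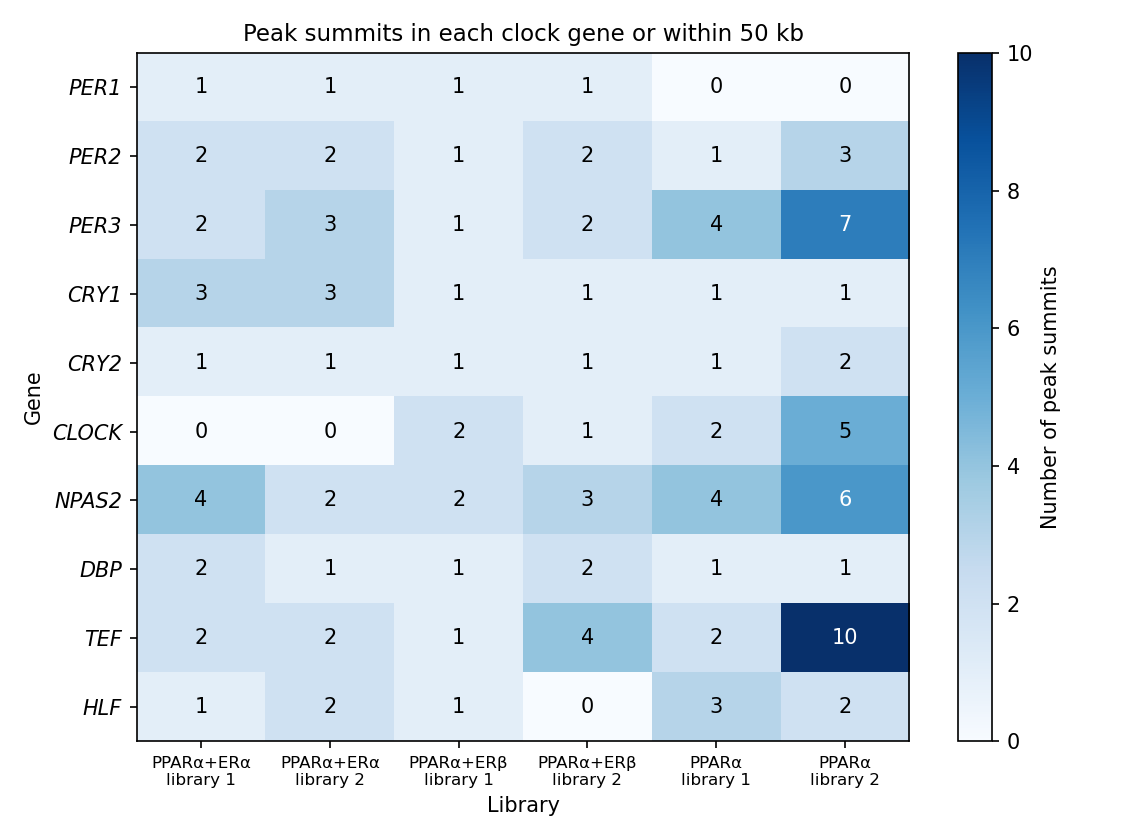
Number of peak summits in each clock gene's window (vertical axis: gene, horizontal axis: library), with the 2 libraries of PPARα+ERα, PPARα+ERβ and PPARα side by side. PER1 has a summit in all 4 libraries with an added estrogen receptor, at a different site for each receptor, and in neither PPARα library. The second PPARα library has 10 summits at TEF.

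A region, a set of peaks that overlap by 1 bp or more, counted as occupied where both libraries of a group had called a peak. With PPARα+ERα 6 of the 10 clock genes had an occupied region, with a share of 38.0% over all protein-coding genes. With PPARα+ERβ it was 8 of 10, against 46.6% over all, and with PPARα 8 of 10, against 60.5% over all. The 10 windows held 73 regions, 26 of them occupied in some group. Of these, 6 were occupied only with PPARα+ERα, 5 only with PPARα+ERβ, 11 only with PPARα and 4 with both PPARα+ERβ and PPARα. A region called in both PPARα+ERα libraries and no other was found for 6 genes, against 35.2% of all, one in both PPARα+ERβ libraries and no other for 3 (PER1, PER2 and TEF), against 8.56%, and one in both PPARα libraries and no other for 5, against 24.9%. A region occupied with both PPARα+ERβ and PPARα was found for 4 (CLOCK, CRY2, DBP and NPAS2), against 32.8%. No clock region was occupied in all 3 groups, and 0.926% of all protein-coding genes had one that was. Within occupied regions the summits of different libraries lay a median of 1 bp apart and at most 85 bp.

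Most of these regions are not at the clock genes' own promoters. Of the 26 occupied regions, 10 lay in the span of a clock gene, 5 upstream and 11 downstream. Outside the spans, 13 lay over or nearer to another gene and 3 were nearest to the clock gene. Of the occupied regions, only the one at PER1 was within 3 kb of its clock gene's start site. Nearness to start sites of neighbouring genes was not counted. Distances are from the most upstream start site of the promoter windows, which for PER2 lies inside the span. These placements were not counted over the windows of all genes, so they are not shown to be particular to clock genes.

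PER1 encodes a period repressor that is quickly induced by light and hormones in mice. Its only region near the start site, chr17:8153986-8154332, lay 1.70 kb upstream and was called only with PPARα+ERβ. The stacks there were 53 and 59 fragments with PPARα+ERβ, with folds of 3.34 and 3.14, at ranks 4634 of 17457 and 6990 of 23302. No peak was called with PPARα+ERα or with PPARα. The local background was 26 and 25.6 times the lowest, so this is a region of high background. A call there would have needed an estimated 23 and 24 fragments with PPARα+ERα and 30 and 34 with PPARα. These limits take the background multiple at a site as equal in all libraries, and leave out the caller's demand for a minimum width.

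A second PER1 region, chr17:8107801-8108130, was called only with PPARα+ERα, 44.5 kb downstream of the start site and inside ALOXE3, a lipoxygenase gene of skin. Its stacks were low, at 5 and 7 fragments with folds of 4.0 and 5.20, against a background of 1.28 times the lowest. PER1 had no peak at all in either PPARα library. Among 29 other clock and clock-related genes, CRY2 and BMAL1 had the numbers of summits per library most like those of PER1, each with a summed absolute difference of 3 summits over 6 libraries.

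PER2 encodes the period protein that is mutated in a familial form of early human sleep timing. It and TEF were the 2 clock genes with a region of their own in each group, where 1.37% of all protein-coding genes had one in each. With PPARα+ERα the region was chr2:238319765-238320116, 31.3 kb upstream, with 12 and 14 fragments and folds of 6.49 and 7.22. With PPARα+ERβ it was chr2:238245043-238245507, 1.17 kb inside the 3′ end, with 26 and 22 fragments and folds of 11 and 8.43. With PPARα it was chr2:238280648-238281021, 7.71 kb downstream of the start site, with 46 and 66 fragments and folds of 5.26 and 6.20. The 3 groups thus had peaks at 3 separate sites in the window of one gene. The PPARα+ERα site, however, lay 19.8 kb outside the PER2 span and 0.64 kb from an end of TRAF3IP1.

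Of these sites, that of PPARα+ERβ was on low background, at 2.47 and 2.44 times the lowest, and ranked at percentiles 95.5 and 82.4. A peak there would have needed an estimated 6 and 6 fragments with PPARα+ERα and 7 and 8 with PPARα. The PPARα site was on a background of 13.5 and 14.5 times the lowest, where the PPARα+ERα libraries would have needed 15 and 16 fragments and the PPARα+ERβ libraries 20 and 22. PER2 was nearest to DBP in its numbers of summits per library, with a summed difference of 3. A single peak of the first PPARα+ERα library, picked out after its values were seen, lay at chr2:238300193-238300580, 0.172 kb outside the 5′ end of the span, with a fold of 9.99 and percentile 96.9. The second PPARα+ERα library had no peak there.

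**Figure D2:**
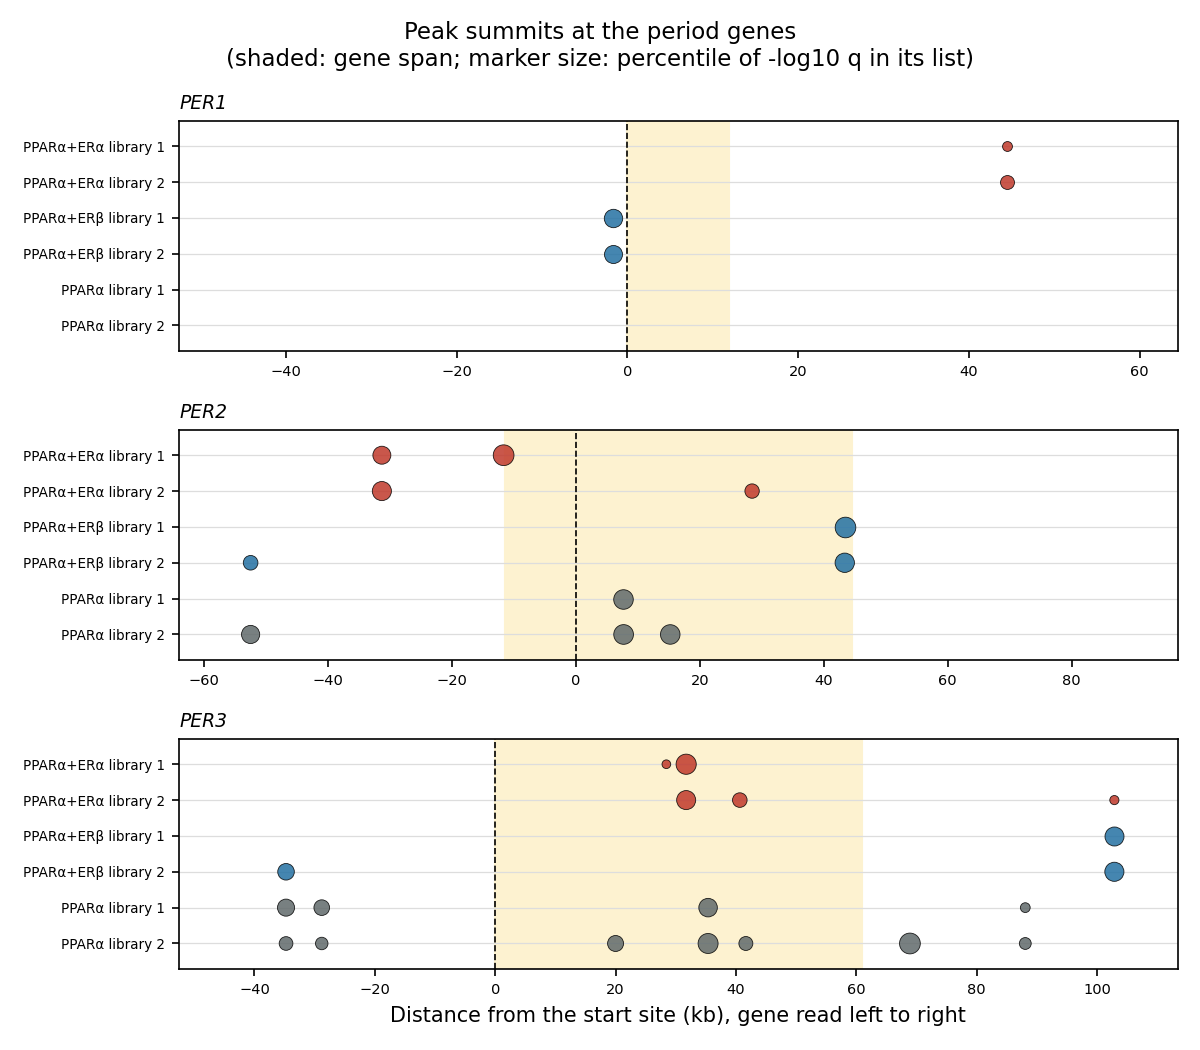
Peaks in the windows of PER1, PER2 and PER3, by library (rows) and distance from the gene's start site in kb (horizontal axis), with each gene's span drawn. The 3 groups' regions at PER2 stand at 31.3 kb upstream, 7.71 kb downstream and 43.4 kb downstream of the start site.

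PER3, the period gene with the weakest role in the mouse clock, had 6 occupied regions, the most of any clock gene. With PPARα+ERα a region in the span, chr1:7815829-7816310, 31.7 kb from the start site, had 13 and 11 fragments and folds of 9.22 and 7.70. The next region, chr1:7819302-7819807 at 35.4 kb, had 58 and 90 fragments with PPARα, with folds of 3.65 and 5.01, and no peak in any other library. The background at the PPARα+ERα site was 1.33 times the lowest, and at the PPARα site it was 25.8 and 25.3 times. The adjacent sites differed in background as well as in group.

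The other PER3 regions lay outside the span. With PPARα+ERβ a region over UTS2, which encodes the vasoactive peptide urotensin 2, had 27 and 31 fragments and folds of 6.06 and 6.02, and the second PPARα+ERα library also had a peak there of 11 fragments. With PPARα, regions over CAMTA1 at 34.7 kb and 28.8 kb upstream had folds of 3.67 and 3.41 and of 3.32 and 3.09, and one over UTS2 had folds of 2.54 and 3.09. The region at 34.7 kb upstream was also called in the second PPARα+ERβ library, with a fold of 3.17.

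The cryptochromes, the strongest repressors of CLOCK and BMAL1, had 1 occupied region each. CRY1 had an occupied region only with PPARα+ERα, chr12:106955215-106955598, with 15 and 16 fragments and folds of 11.5 and 12. It ranked at percentiles 97.6 and 97.8, above every other occupied clock region by the lower of its percentiles, on the lowest background of both lists. It lies 36.0 kb outside the CRY1 span, however, and 0.553 kb from an end of TMEM263. The 4 other libraries had no peak there, although an estimated 5 fragments would have been enough in each.

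CRY2 had a region inside the gene in both other groups. At chr11:45859563-45859957, 12.6 kb from the start site, stacks were 16 and 21 fragments with PPARα+ERβ and 13 and 32 with PPARα. Folds were 7.63 and 8.84 with PPARα+ERβ and 6.27 and 13.7 with PPARα. No PPARα+ERα library had a peak there, where 5 and 5 fragments would have been needed. The second PPARα+ERα library alone had a peak 2.156 kb upstream of CRY2, with a fold of 6.72, named after its values were seen.

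CLOCK and its relative NPAS2, which replaces it in forebrain of mice, encode the activators that pair with BMAL1. CLOCK had no peak in either PPARα+ERα library. Its occupied region, chr4:55408542-55408937, lay over TMEM165, 19.1 kb outside the span. Stacks there were 33 and 44 fragments with PPARα+ERβ and 49 and 74 with PPARα, and folds were 3.51 and 3.96 with PPARα+ERβ and 5.18 and 6.94 with PPARα.

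NPAS2 is the longest clock gene, at 178 kb, and all 4 of its occupied regions lay inside it, none of them with PPARα+ERα. The region at 34 kb, chr2:100853977-100854355, had the highest stacks of any occupied clock region, 81 and 110 fragments with PPARα, at percentiles 93.5 and 94.0 and on a background of 31.9 and 31.4 times the lowest. The region at 30.0 kb had 45 and 48 fragments with PPARα+ERβ, and 41 in the first PPARα library. The region at 71.2 kb had 72 and 75 fragments with PPARα and 64 in the second PPARα+ERβ library. At 148.9 kb, stacks of 21 and 26 fragments with PPARα+ERβ and 21 and 18 with PPARα were nearly level. PPARα+ERα peaks in the NPAS2 window were called in 1 library at a time, 4 in the first and 2 in the second.

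Among the output genes, DBP is the most strongly rhythmic in liver of mice and rats. The DBP span itself held no summit of any library. The region shared by PPARα+ERβ and PPARα, chr19:48580751-48581222, lay over SULT2B1, a cholesterol sulfotransferase gene, 49.0 kb from the DBP span. Stacks there were 20 and 36 fragments with PPARα+ERβ and 21 and 37 with PPARα, with folds of 6.62 and 10.3 with PPARα+ERβ and 6.95 and 11 with PPARα. The PPARα+ERα region near DBP, over FAM83E, was among the weakest called, with folds of 2.35 and 2.59 at percentiles 4.06 and 8.20.

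TEF had a region of its own in each group, all outside its span. With PPARα+ERα it had 6 and 15 fragments, with folds of 3.50 and 7.70, at 80.6 kb from the start site. With PPARα+ERβ it had 78 and 79 fragments at 47.5 kb, with folds of 2.70 and 2.25, on a background of 48.2 and 48.7 times the lowest, the highest of any occupied clock region. With PPARα, regions over ZC3H7B and over TOB2 had 55 and 87 and 46 and 46 fragments, the second also called with 44 fragments in 1 PPARα+ERβ library. Of the TEF summits, 10 came from the second PPARα library and 2 from the first.

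HLF, which also drives leukaemia as a fusion partner of TCF3, had occupied regions only with PPARα. Stacks at chr17:55332688-55333029, 7.66 kb past its end, were 18 and 30 fragments with folds of 6.72 and 10.0. Inside the gene, at 51.9 kb from the start site, a weaker region had 8 and 10 fragments with PPARα, and single peaks of 9 fragments with PPARα+ERα and 16 with PPARα+ERβ. It was therefore called in at least 1 library of every group.

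**Figure D3:**
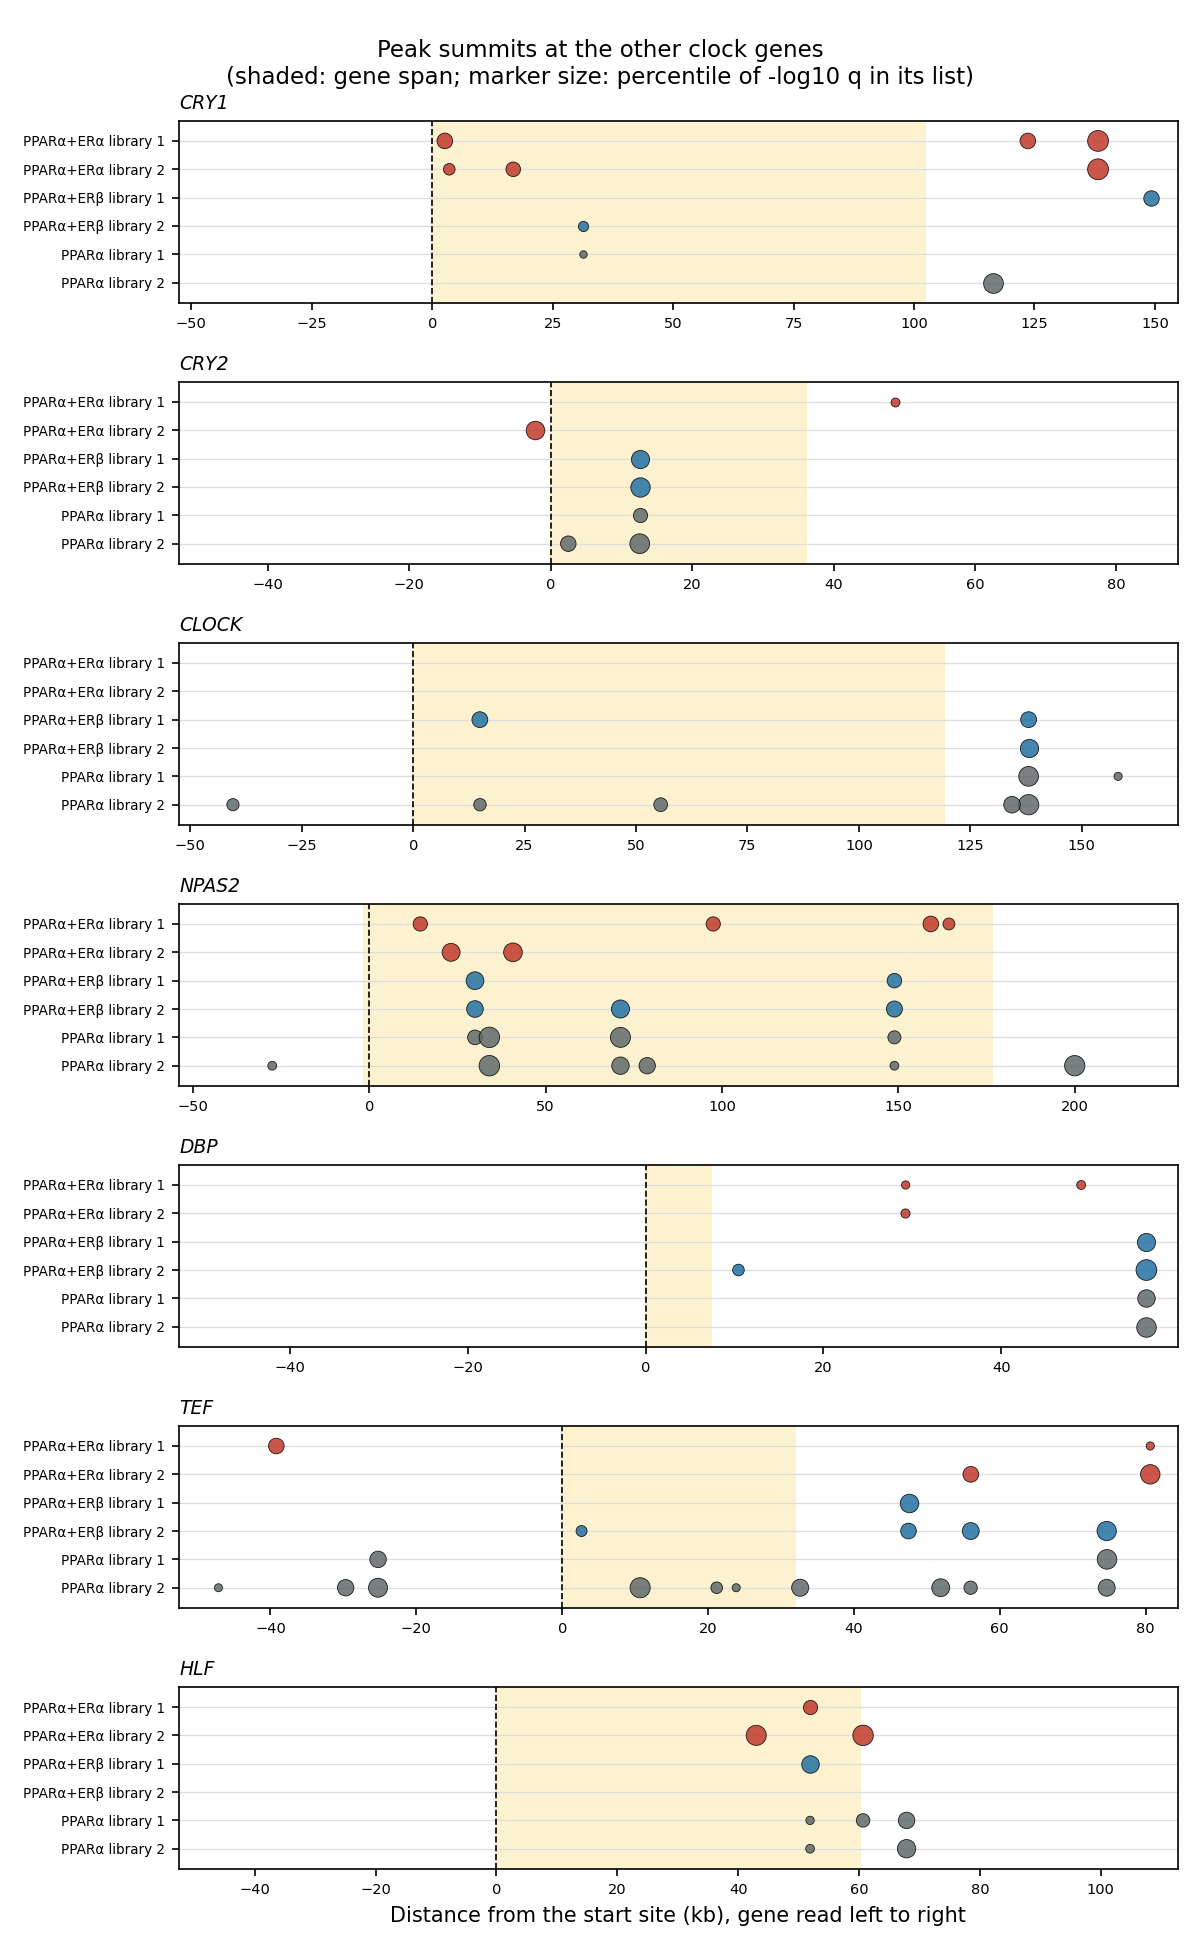
Peaks in the windows of CRY1, CRY2, CLOCK, NPAS2, DBP, TEF and HLF, by library (rows) and distance from the start site in kb (horizontal axis). CLOCK has no PPARα+ERα peak, and the occupied regions inside NPAS2 are those of PPARα+ERβ and PPARα.

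Set against each other directly, 6 clock genes had a region in both PPARα+ERα libraries and no PPARα peak (CRY1, DBP, PER1, PER2, PER3 and TEF), against 36.7% of all protein-coding genes. The reverse, a PPARα region without a PPARα+ERα peak, held for 8, against 58.9%. With PPARα+ERβ and no PPARα peak there were 4 (PER1, PER2, PER3 and TEF), against 10.8%, and with PPARα and no PPARα+ERβ peak 5 (HLF, NPAS2, PER2, PER3 and TEF), against 25.3%. Without the first PPARα library, and so on peaks of the second alone, this last count was 8. The share of all genes in the same setting was 66.2%. Between the estrogen receptors, 6 genes had a PPARα+ERα region without a PPARα+ERβ peak, against 35.5%, and 7 the opposite, against 43.0%. PER1 and PER2 were the 2 clock genes with a PPARα+ERβ region and no PPARα peak within 3 kb of an end of the span, against 0.906% of all genes. At a −log10 q of at least 5, 3 genes (CRY1, PER2 and PER3) kept a PPARα+ERα region without a PPARα+ERβ peak, against 23.8% of all genes, and 3 were occupied with PPARα+ERα, against 25.0%. Within 10 kb the genes occupied with PPARα+ERα were 1 of 10, against 21.0%, so the clock genes' share was then below that of all genes. On a background of up to 3 times the lowest, PER2 alone kept a PPARα+ERβ region without a PPARα peak, against 3.53% of all genes. These shares come from 10 genes chosen with the peaks in view. The smallest two-sided p that 2 against 2 libraries can give by permutation is 0.333, so no p is given.

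**Figure D4:**
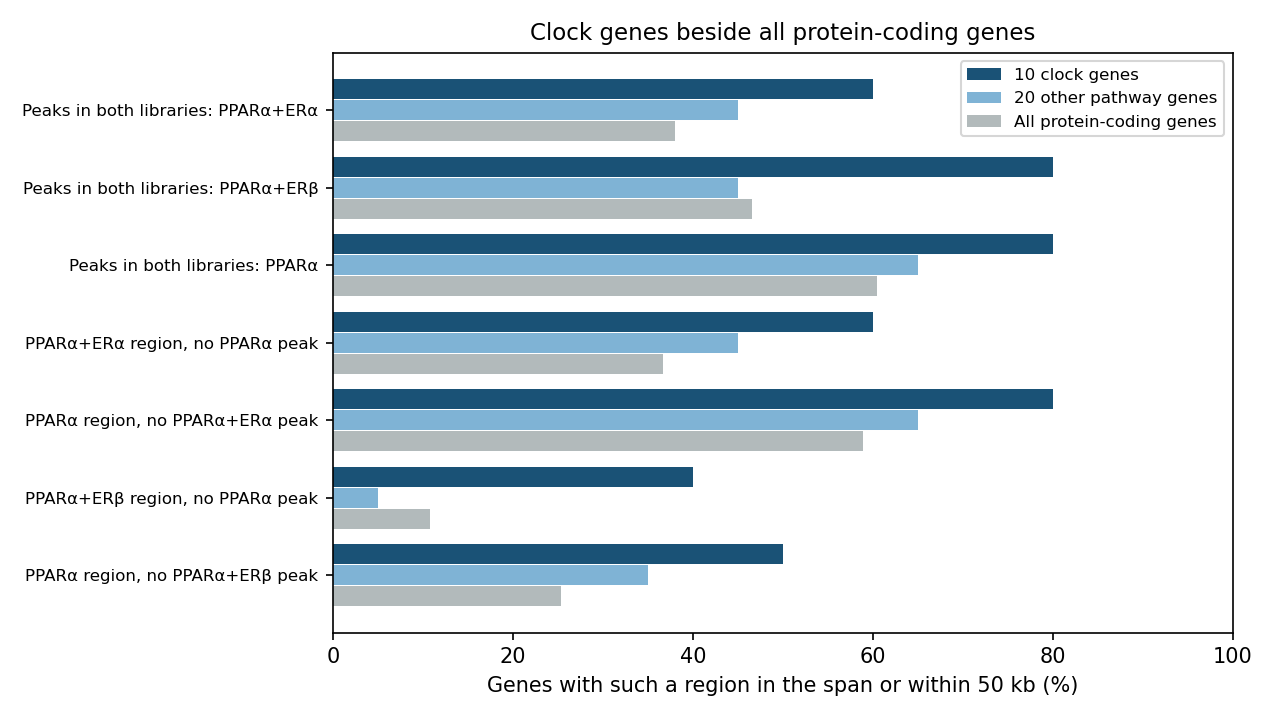
Share of the 10 clock genes, the 20 further clock pathway genes and all protein-coding genes (horizontal axis, %) with the region named on the vertical axis. For a PPARα+ERβ region without a PPARα peak the shares are 40%, 5% and 10.8%.

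For each missing peak, the fragments that a call would have needed were estimated. How far depth played a part was not tested. In 25 of the 26 occupied regions, every library without a peak could have called a stack as high as the lowest that was called, after both were divided by the list's lowest background. The exception was the HLF region at 51.9 kb. At the 6 regions occupied only with PPARα+ERα, this outcome was nearly fixed in advance. After the division, the limits there were higher in the PPARα+ERα libraries than in the others, so a stack called with PPARα+ERα would pass. At CRY1 the limits were 10.3 and 9.54 with PPARα+ERα, against 7.05 to 8.55 in the other libraries. Some margins were narrow. At the NPAS2 region at 148.9 kb the lowest stack, so divided, was 26.6 and the highest limit 26.2. The division does not allow for the difference in stack height between the groups. The limit rests on the background multiple at a site being alike between libraries. It agreed within 10% in 28 of 31 clock regions called in more than 1 library, but only 4 clock regions had both a PPARα+ERα peak and one of another group. Over all shared sites it agreed within 10% at 84.9 to 89.1% of sites between a PPARα+ERα library and one of another group, and at 90.2 to 96.1% in the other pairs of libraries.

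**Figure D5:**
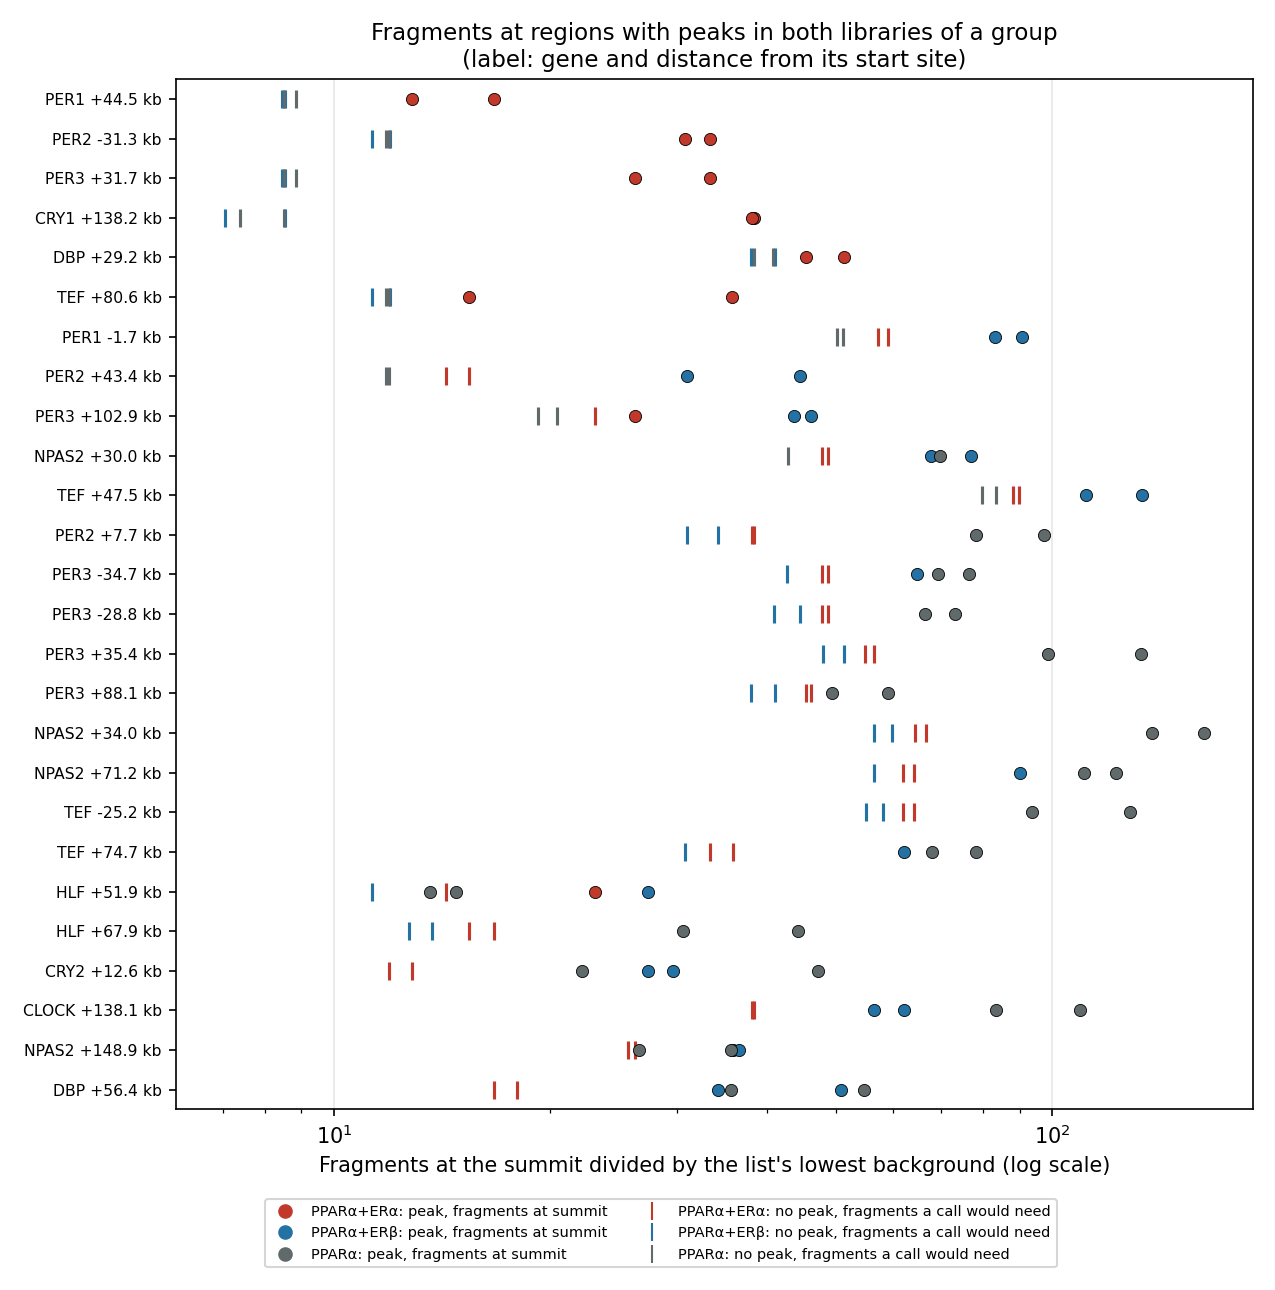
Fragments at the summit in each library with a peak (points) and fragments that a call would have needed in each library without one (ticks), both divided by the list's lowest background (horizontal log axis), for the 26 occupied regions. Except at the HLF region at 51.9 kb, the ticks lie below the lowest point of their line. At regions occupied only with PPARα+ERα this was nearly fixed in advance by the higher limits of those libraries.

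Regions called in 1 library numbered 42, of which the second PPARα library gave 19, the first PPARα+ERα library 11 and the second 8. Their median percentile was 48.1, against 65.3 for peaks in regions called in several libraries. The 2 PPARα+ERβ libraries shared 45.0% of the clock regions called in either, against 33.4% over all regions. The PPARα+ERα libraries shared 20.7%, against 20.5%, and the PPARα libraries 36.6%, against 41.4%.

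Besides the 10 genes, 20 further pathway genes were examined, taken from the repressor, activator and kinase branches of the clock. Of these, 9 (45%) had an occupied region with PPARα+ERα, against 38.0% of all protein-coding genes, 9 (45%) with PPARα+ERβ, against 46.6%, and 13 (65%) with PPARα, against 60.5%. These shares lay near those of all genes. BMAL1, NR1D1 and CSNK1D, all among the 20, had no region occupied in any group. A PPARα+ERα region with no PPARα peak was found for 9, against 36.7% of all, and a PPARα region with no PPARα+ERα peak for 13, against 58.9%. A PPARα+ERβ region with no PPARα peak was found for PPARGC1A alone, 5% of the list against 10.8% of all genes, and a PPARα region with no PPARα+ERβ peak for 7, against 25.3%.

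Within 3 kb of an end of the span, 6 of the 20 pathway genes had an occupied region. The matching share over all protein-coding genes was not counted, so these genes are only described. CSNK1E, the kinase that marks PER proteins for degradation, had one 0.586 kb upstream of its start site with PPARα+ERα only, of 20 and 27 fragments and folds of 8.39 and 10.7. RORB, an activating orphan receptor, had one 0.745 kb upstream with PPARα only, with folds of 3.27 and 4.12. NR1D2, a repressor of BMAL1 transcription, had one 2.96 kb inside the gene with PPARα, with folds of 3.99 and 6.04, and a fold of 2.92 in 1 PPARα+ERβ library. These 3 lay nearest to start sites.

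BHLHE40, which competes for E-boxes, had a region 0.604 kb past its end with folds of 3.46 and 4.03 with PPARα+ERβ and 3.68 and 2.89 with PPARα. TIMELESS, a replication fork protein, had one 0.267 kb past its end with folds of 3.80 and 5.21 with PPARα and 3.26 in 1 PPARα+ERβ library. NOCT, a rhythmic phosphatase of NADP, had one in its span with folds of 3.79 and 5.42 with PPARα and 1.71 in 1 PPARα+ERβ library.

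PPARGC1A, the coactivator of PPARα known as PGC-1α, had regions in each group within its wide window. The highest ranked was called with PPARα+ERα, 23.2 kb outside the span, with 17 and 19 fragments and folds of 13 and 14.1. RORA, which activates BMAL1, had a region in its span with folds of 10.4 and 11.7 with PPARα+ERβ and 15.5 and 18.0 with PPARα, and no PPARα+ERα peak. A separate RORA region had folds of 7.91 and 9.16 with PPARα+ERα and no peak in the other groups.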

How the data were processed

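Peak lists from 6 ChIP-seq libraries, 2 per group, were used. Per the submitters' processing notes, the tools named were MACS2 2.2.7.1, DiffBind 2.16, ChIPseeker 1.18.0, Bowtie 1.0.1, HOMER 4.11 and Trim Galore 0.6.4, with the build hg38, and the role of each and the control are not given in the sources used here. The deposited lists give the authors' fold over local background, −log10 p and −log10 q of the summit, a score of 10 times the −log10 q, and the summit position. Library numbers follow the order of deposit only.

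Fragment numbers and local backgrounds at summits were solved from the fold and −log10 p of the deposited lists, and a whole fragment number returned the deposited value within 0.001 for 100% of peaks. Depth in reads is unknown. Peaks overlapping by 1 bp were merged into regions. Gene spans and promoter sequences are from RefSeq GRCh38.p14. The 10 genes, the 20 pathway genes and the motifs were chosen with earlier results of these data known. All 10 genes are named, with every region occupied in a group. Regions are described for up to 8 pathway genes, those with a region within 3 kb of an end coming first. Pathway genes with no occupied region are named as such. No test was made. Matplotlib 3.10.9, SciPy 1.17.1, pandas 2.3.3, Python 3.11.15 and NumPy 2.4.6 were used, and the steps were tested on simulated data, where 100% of 1272 fragment numbers were recovered. Windows of 10 kb and 100 kb, a −log10 q of at least 5, lists of equal length, an overlap of 50% of the shorter peak, a low background and leaving out each library were tried.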

Additional observations from a re-analysis of the deposited data

How the results depend on the processing

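Each count of the 10 clock genes is given with the share of all protein-coding genes in the same setting. With an overlap of 50% of the shorter peak, all 9 counts stayed within 1.5 times their value. Within 10 kb, 1 gene was occupied with PPARα+ERα (21.0% of all genes), 4 with PPARα+ERβ (25.3%) and 5 with PPARα (34.1%). There 1 gene had a PPARα+ERα region and no PPARα peak (20.2%), 5 a PPARα region and no PPARα+ERα peak (32.9%), 2, PER1 and PER2, a PPARα+ERβ region and no PPARα peak (5.22%), 1 a PPARα+ERα region and no PPARα+ERβ peak (19.5%), and 4 a PPARα+ERβ region and no PPARα+ERα peak (22.8%). The PPARα+ERα counts, above the shares of all genes at 50 kb, were below them here. Within 100 kb, 10 genes were occupied with PPARα+ERα (52.8%) and 10 had a PPARα+ERα region and no PPARα peak (51.3%). With a −log10 q of at least 5, 3 genes were occupied with PPARα+ERα (25.0%), 3 had such a region and no PPARα peak (24.4%) and 3 no PPARα+ERβ peak (23.8%). With lists of equal length, 17457 peaks, these were 3 (28.2%), 3 (27.7%) and 3 (26.6%). Both settings put the PPARα+ERα counts close to the shares of all genes. On a local background of up to 3 times the lowest, a limit chosen after seeing the data, 5 genes were occupied with PPARα+ERα (30.5%), 2 with PPARα+ERβ (14.0%) and 2 with PPARα (15.6%), which turns round the order of the groups. There 1 had a PPARα region and no PPARα+ERα peak (13.1%), 1, PER2, a PPARα+ERβ region and no PPARα peak (3.53%), 0 a PPARα region and no PPARα+ERβ peak (3.28%), and 2 a PPARα+ERβ region and no PPARα+ERα peak (10.2%). The causes were not tested. Of the 26 occupied regions, 19 kept the same libraries at a −log10 q of at least 5, 17 in lists of equal length, and 8 lay on low background.

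When 1 library at a time was left out, its group was judged on the remaining library alone. This is a looser rule than a peak in both, so these counts do not show how stable the main counts are. Occupied genes then numbered 9 with PPARα+ERα (68.8 to 72.7% of all genes), 9 to 10 with PPARα+ERβ (62.6 to 73.1%) and 9 with PPARα (69.2 to 83.8%). Genes with a PPARα+ERα region numbered 6 to 9 without a PPARα peak (36.9 to 71.1%) and 6 to 9 without a PPARα+ERβ peak (36.2 to 70.1%). Genes with a PPARα+ERβ region numbered 4 to 5 without a PPARα peak (15.8 to 38.8%) and 7 to 9 without a PPARα+ERα peak (44.3 to 70.2%). Genes with a PPARα region numbered 8 to 9 without a PPARα+ERα peak (59.5 to 83.1%) and 5 to 8 without a PPARα+ERβ peak (32.0 to 66.2%), the 8 being without PPARα library 1. No paired analysis was possible because libraries 1 and 2 are numbered by order of deposit, which pairs no samples, and the counts come from no test. Depth in reads is unknown, and stacks as low as 4 fragments were called near clock genes with PPARα+ERα.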
